A study of Mus musculus with 8 samples.

Results

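The signal transducers and activators of transcription (STATs) and the suppressors of cytokine signaling (SOCS) were followed through 9 genes, taken from the count table by symbol among the 54532 genes it lists. They are Stat2, Stat3, Stat5a, Stat5b and Stat6 on the side of the transcription factors, and Socs1, Socs3, Socs2 and Cish on the side of the inhibitors. All 9 passed the filter on low counts, which left 12911 genes for testing. The cells were bone marrow-derived macrophages (BMDMs), macrophages grown from bone marrow with macrophage colony-stimulating factor (M-CSF), and their RNA was read in 4 WT and 4 Gsdmd-/- libraries. Gsdmd encodes gasdermin D, the pore-forming protein of pyroptotic cell death, and both of its copies are disrupted in the Gsdmd-/- mice. The methods give C57BL/6J females 6 to 8 weeks old as the source of such cells, without stating sex and age for the Gsdmd-/- donors, and 6 days of culture with 20 ng/ml M-CSF. The labels give no treatment for any of the 8 samples. The WT mice were C57BL/6J mice from a supplier and the Gsdmd-/- mice were kept in a separate colony, so genotype and colony cannot be told apart. The sources used here do not say whether each library came from its own mouse, and p-values then measure the spread between libraries, which may be technical.

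STATs wait in the cytoplasm until a cytokine binds its receptor, whose Janus kinases (JAKs) then phosphorylate them, and paired STATs move to the nucleus and bind DNA. STAT2 works with IRF9 downstream of type I interferon, STAT3 follows receptors with gp130 and the IL-10 receptor, STAT5A and STAT5B follow GM-CSF, IL-3 and related cytokines, and STAT6 follows IL-4 and IL-13, the cytokines of alternative macrophage activation. SOCS1, SOCS2, SOCS3 and CIS, the product of Cish, are made in response to STATs and shut the same receptors down, SOCS1 and SOCS3 by blocking JAKs directly.

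Each library held from 14935114 to 16794810 counts, and a STAT or SOCS gene had between 365 and 4263 counts in a library. Values are given as counts scaled to a common library size (CPM), after TMM normalization. Gsdmd itself fell from 75.3 ± 14.1 CPM in WT to 16.2 ± 1.56 CPM in Gsdmd-/- (SD with n = 4 each, log2 fold change -2.22, edgeR adjusted p = 4.665e-05). WT 2 and WT 3 stood apart from the other libraries, with scores of 45.4 and 38.8 on the first principal component (43.6% of the variance) against -25.9 to -7.19 elsewhere, and results that lean on them are therefore given without them too. The macrophage markers were present in every library (summed level of 10 markers between 15473 and 23675 CPM in WT and between 19539 and 23531 CPM in Gsdmd-/-), and none was called. Most of that sum was Lyz2. Cd68 was at 414 and 424 CPM in WT 2 and WT 3 and at 621 to 849 CPM elsewhere, Fcgr1 at 7.09 and 6.66 CPM against 17.8 to 40.7 CPM, while C1qa was at 44.9 and 77.6 CPM in WT 1 and WT 4, 4.46 and 6.66 CPM in WT 2 and WT 3, and 8.96 to 15.2 CPM in Gsdmd-/-. The sum of 7 dendritic cell markers was 2228 to 2360 CPM in WT and 1670 to 2090 CPM in Gsdmd-/-, nearly all of it Itgax, with Batf3 at 11.3 to 20.3 CPM in WT and 8.16 to 14.0 CPM in Gsdmd-/-, Siglech at 0 and Flt3 at no more than 0.118 CPM in each library. Neutrophil markers summed to no more than 6.98 CPM and T, NK and B cell markers to no more than 2.99 CPM, with Cd3d and Ncr1 at 0. Kit made up most of the mast cell sum (10.5 to 71.9 CPM in WT, 46.3 to 67.8 CPM in Gsdmd-/-) and Kdr most of the stromal and endothelial sum (28.5 to 70.5 CPM and 49.4 to 81.9 CPM), each lowest in WT 2 and WT 3. The erythroid and megakaryocyte markers summed to 8.07 to 29.5 CPM in WT and to 11.9 to 17.9 CPM in Gsdmd-/-, with Hba-a1 and Hbb-bs at 0. The part of the Itgax, Batf3, Kit, Kdr, Cd68, Fcgr1 and C1qa levels in the results below was not tested.

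The promoters of the genes on which the results turn are shown first. They are Stat2, which differed most between the genotypes, Socs1 and Socs3, which varied together, and Cish, a textbook STAT5 target. Each sequence is a window of 250 bases before and 50 bases from the annotated start, 5′ to 3′ on the strand of the gene (RefSeq, GRCm38.p6), and 8 of the 9 genes, all but Socs2, had such a window. Capitals mark the letters TTCNNNGAA, the pairing of half-sites that STAT dimers bind, or the same half-sites with 4 bases between them, the spacing known for STAT6. Both patterns read the same on either strand.
Stat2 (chr10:128270248-128270547, plus strand): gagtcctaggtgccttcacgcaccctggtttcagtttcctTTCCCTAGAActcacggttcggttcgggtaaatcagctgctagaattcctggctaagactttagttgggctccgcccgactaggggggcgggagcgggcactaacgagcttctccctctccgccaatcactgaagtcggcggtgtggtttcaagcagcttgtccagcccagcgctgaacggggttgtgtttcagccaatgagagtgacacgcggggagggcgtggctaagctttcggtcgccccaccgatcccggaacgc
Socs1 (chr16:10785487-10785786, minus strand): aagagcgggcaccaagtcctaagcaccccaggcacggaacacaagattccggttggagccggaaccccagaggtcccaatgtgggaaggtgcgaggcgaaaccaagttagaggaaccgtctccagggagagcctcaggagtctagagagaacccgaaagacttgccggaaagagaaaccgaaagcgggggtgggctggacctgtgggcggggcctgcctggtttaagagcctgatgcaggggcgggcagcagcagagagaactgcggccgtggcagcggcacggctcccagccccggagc
Socs3 (chr11:117969317-117969616, minus strand): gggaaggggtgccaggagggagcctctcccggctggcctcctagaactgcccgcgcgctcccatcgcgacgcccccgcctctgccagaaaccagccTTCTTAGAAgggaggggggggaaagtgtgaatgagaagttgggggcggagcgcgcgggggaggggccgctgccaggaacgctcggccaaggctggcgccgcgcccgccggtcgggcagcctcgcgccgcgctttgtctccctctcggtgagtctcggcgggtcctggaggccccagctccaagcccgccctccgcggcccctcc
Cish (chr9:107296409-107296708, plus strand): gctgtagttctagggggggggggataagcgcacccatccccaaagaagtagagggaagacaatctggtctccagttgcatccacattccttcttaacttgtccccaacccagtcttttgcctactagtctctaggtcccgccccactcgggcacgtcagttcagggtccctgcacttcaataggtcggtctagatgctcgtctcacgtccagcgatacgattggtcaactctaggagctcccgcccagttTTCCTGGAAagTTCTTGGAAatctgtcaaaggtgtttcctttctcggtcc
The Cish window held 2 matches to TTCNNNGAA, beginning at bases 251 and 262 of the window. The Socs3 window held 1, beginning at base 97, and the Socs1 window held neither pattern. The Stat2 window held 1 match with the spacing of 4, beginning at base 41. No match to either pattern was present in the windows of Stat3, Stat5a, Stat5b and Stat6. Of 32817 promoter windows of this length, 8.29% held at least 1 match to TTCNNNGAA, 0.457% held 2 or more, and 6.94% held the pattern with the spacing of 4. These are descriptions of letters, not of binding.

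Across the 9 genes, differences between the genotypes were small. None had an adjusted p under 0.05 by the quasi-likelihood test of edgeR with Benjamini-Hochberg adjustment over all genes tested, where 0.349% of the genes passed. At an unadjusted p under 0.05, which 12.0% of all genes met, 2 of the 9 were counted, Stat2 and Socs1. At the cutoff that the study used, an unadjusted p under 0.05 and a log2 fold change of 0.5 or more in size, Stat2 was the 1 gene counted, on the lower side, beside 3.28% of all genes on that side and 1.54% on the higher side. DESeq2 and the exact test of edgeR each called 1 of the 9, again Stat2, where they called 2.26% and 1.91% of all genes. The median log2 fold change of the 9 genes was -0.08, with 3 above and 6 below 0, against -0.0068 for all genes tested. The 3 genes with positive values were Socs1, Socs3 and Cish.

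**Figure D1:**
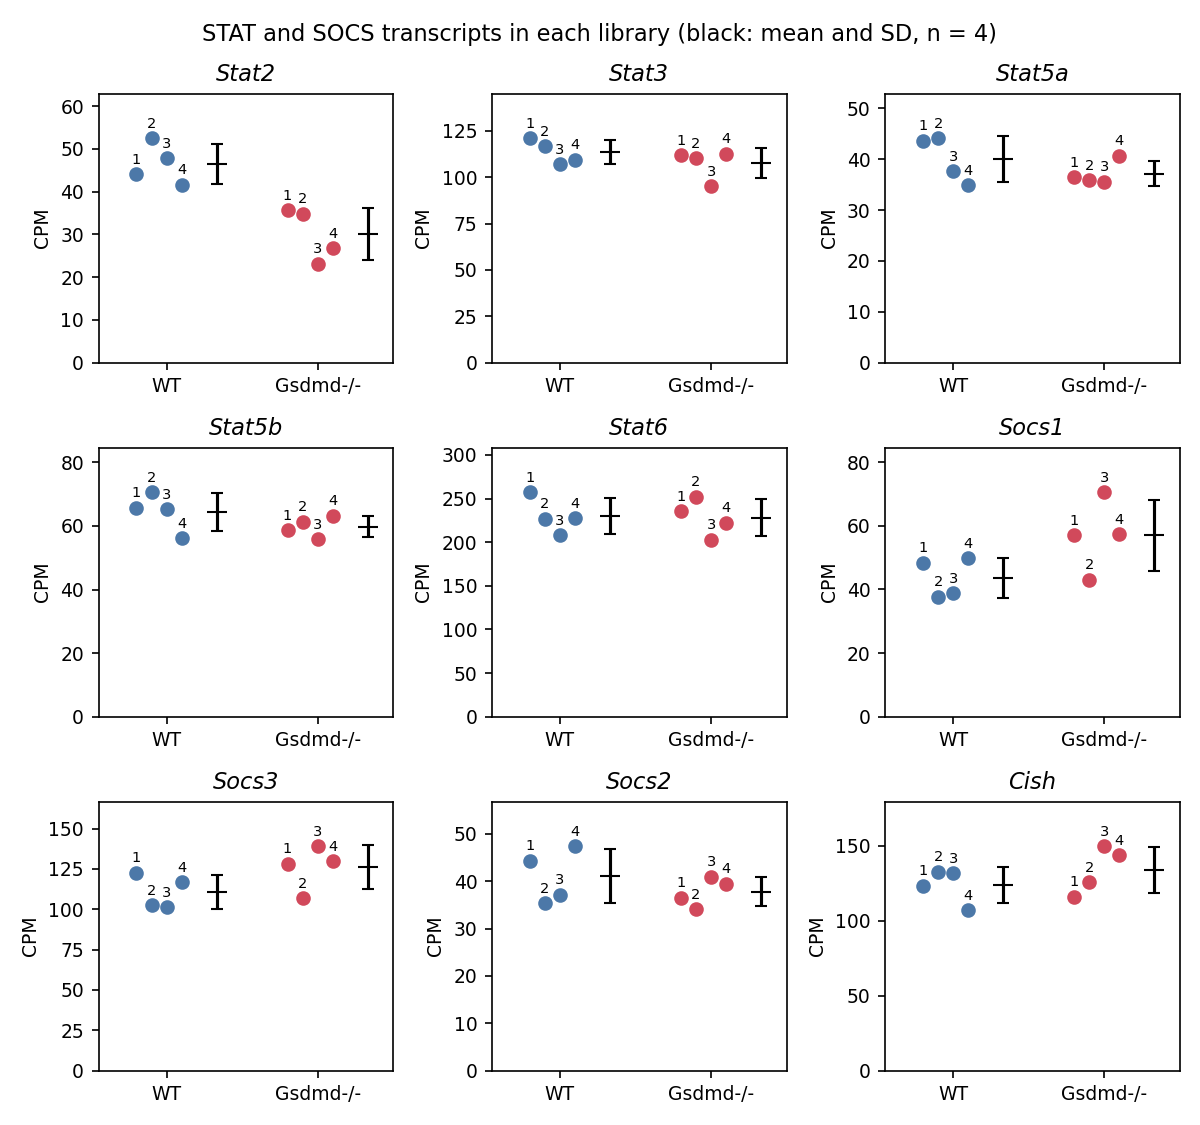
Level of each STAT and SOCS gene in CPM on the vertical axis, for the 4 WT (blue) and 4 Gsdmd-/- (red) libraries, each point numbered by its replicate, with the mean and SD in black. The genotypes do not overlap for Stat2, where all Gsdmd-/- libraries lie at or below 35.7 CPM and all WT libraries at or above 41.7 CPM, and overlap for the other 8 genes.

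Stat2 (ENSMUSG00000040033, chromosome 10 from 128270559 to 128292849, plus strand) showed the clearest difference. WT libraries 1 to 4 had 44.1, 52.5, 47.8 and 41.7 CPM, and Gsdmd-/- libraries 1 to 4 had 35.7, 34.9, 23.2 and 26.7 CPM. Every Gsdmd-/- library was below every WT library, a separation that 7.60% of all genes tested showed in either direction, and Gsdmd-/- 3 and 4 were the lowest. The means were 46.5 ± 4.71 and 30.1 ± 6.15 CPM (SD, n = 4 each), so that the Gsdmd-/- mean was 64.7% of the WT mean. The log2 fold change was -0.63 (standard error 0.145, 95% interval -0.95 to -0.30, edgeR adjusted p = 0.124). Stat2 therefore did not pass the adjusted threshold in the main test. DESeq2 gave it an adjusted p of 0.00937 and the exact test of edgeR one of 0.00994, and over all 17 alternative settings the log2 fold change stayed between -0.72 and -0.51 and the adjusted p between 0.00937 and 0.313. Without WT 2 and WT 3, the pair of libraries with the highest Stat2, it was -0.51 (edgeR adjusted p = 0.214).

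The neighbours of STAT2 in interferon signaling were at hand in the same libraries. Tyk2, the kinase of the type I interferon receptor, had 92.8 ± 8.86 and 79.9 ± 5.49 CPM and a log2 fold change of -0.22 (edgeR adjusted p = 0.391). Usp18, an interferon-induced brake on that receptor, ranged from 6.78 CPM in WT 3 to 24.0 CPM in WT 4, a wider span than the whole Gsdmd-/- group (12.2 to 21.3 CPM), and its log2 fold change was 0.15 with, and -0.38 without, WT 2 and WT 3. Of 18 tested interferon response genes, 2 had an adjusted p under 0.05, beside 0.349% of all genes, and both were lower in Gsdmd-/-. Irf1, a transcription factor induced by interferon-γ, fell by 0.77 on the log2 scale (39.9 ± 6.09 to 23.5 ± 2.88 CPM, SD, n = 4 each; edgeR adjusted p = 0.0468). Ciita, the master regulator of MHC class II genes, went from 51.2 ± 4.70 to 26.6 ± 6.12 CPM (log2 fold change -0.95, edgeR adjusted p = 0.0339). The median log2 fold change of the 18 genes was -0.13, with 6 above and 12 below 0. With 1 library fewer, whichever it was, the log2 fold changes stayed at -0.86 to -0.71 for Irf1 and -1.11 to -0.86 for Ciita. Irf1 was called in 1 of these 8 fits, without WT 1, with an adjusted p of up to 0.233 without Gsdmd-/- 1, and with all libraries it was not called by limma voom (adjusted p = 0.0546) or with upper-quartile scaling (edgeR adjusted p = 0.0562). Ciita was called in 2 of the 8, without WT 4 and without Gsdmd-/- 4, with an adjusted p of up to 0.164 without Gsdmd-/- 1.

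The other STATs held close levels in both genotypes. Stat3 (chromosome 11 from 100885098 to 100939540, minus strand) had 121, 117, 107 and 109 CPM in WT libraries 1 to 4 and 112, 110.4, 95.3 and 113 CPM in Gsdmd-/- libraries 1 to 4. Only Gsdmd-/- 3 lay outside the WT range, and the log2 fold change was -0.08 (standard error 0.0841, 95% interval -0.26 to 0.11, edgeR adjusted p = 0.763), and -0.02 without that library. Stat6 (chromosome 10 from 127642986 to 127660957, plus strand), the STAT of IL-4 signaling, had 257, 227, 208 and 227 CPM in WT and 235, 252, 203 and 222 CPM in Gsdmd-/-. The groups lay on top of each other, with means of 229.8 ± 20.4 and 228 ± 20.9 CPM (SD, n = 4 each). The log2 fold change of Stat6 was -0.01 (95% interval -0.22 to 0.20, edgeR adjusted p = 0.98), an interval that leaves room for a Gsdmd-/- level between 0.856 and 1.15 times that of WT. Without WT 2 and WT 3 the log2 fold change was -0.09.

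Stat5a and Stat5b, a pair of neighbouring genes whose products share GM-CSF and IL-3 signaling, also stayed close. Stat5a (chromosome 11 from 100859351 to 100885169, plus strand) had 43.6, 44.1, 37.7 and 34.9 CPM in WT libraries 1 to 4 and 36.5, 35.9, 35.6 and 40.7 CPM in Gsdmd-/- libraries 1 to 4. Stat5b (chromosome 11 from 100780731 to 100850724, minus strand) had 65.8, 70.6, 65.3 and 56.2 CPM in WT and 58.6, 61.3, 55.8 and 63.3 CPM in Gsdmd-/-. For both genes the WT libraries were the more spread and took in nearly the whole Gsdmd-/- range. The log2 fold change was -0.11 for Stat5a (standard error 0.100, 95% interval -0.33 to 0.11, edgeR adjusted p = 0.718). That of Stat5a was -0.07 without WT 1 or without WT 2, and -0.17 without WT 4. For Stat5b the log2 fold change was also -0.11 (standard error 0.0895, 95% interval -0.31 to 0.09, edgeR adjusted p = 0.679), and -0.03 without WT 2 and WT 3. Without WT 4 it was -0.17. The pair share 608 stretches of 50 bases in their annotated transcripts, 8.21% of those of Stat5a and 11.0% of those of Stat5b, so some reads of one could have been counted on the other or discarded. Stat3 and Stat5a also overlap by 72 exonic bases on opposite strands, where reads counted without strand cannot be assigned to one of them.

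Of the inhibitors, Socs1 (ENSMUSG00000038037, chromosome 16 from 10782240 to 10785536, minus strand) had the largest difference. WT libraries 1 to 4 had 48.3, 37.6, 38.8 and 49.8 CPM, and Gsdmd-/- libraries 1 to 4 had 57.0, 43.0, 70.5 and 57.4 CPM. Only Gsdmd-/- 2 lay within the WT range, and WT 2 and WT 3 were the lowest of all. The means were 43.7 ± 6.31 and 57.0 ± 11.2 CPM (SD, n = 4 each). The log2 fold change was 0.38 (standard error 0.153, 95% interval 0.04 to 0.72). The adjusted p by edgeR was 0.36. Without WT 2 and WT 3 the log2 fold change was 0.21 (edgeR adjusted p = 0.686).

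Socs3 (ENSMUSG00000053113, chromosome 11 from 117966079 to 117970047, minus strand), the inhibitor that acts on gp130 receptors, had nearly the same order of libraries at a higher level. It had 123, 103, 101 and 117 CPM in WT libraries 1 to 4 and 128, 107, 139 and 130.0 CPM in Gsdmd-/- libraries 1 to 4. As for Socs1, WT 2, WT 3 and Gsdmd-/- 2 made up the low end and Gsdmd-/- 3 was the highest. The log2 fold change was 0.18 (standard error 0.104, 95% interval -0.05 to 0.41, edgeR adjusted p = 0.533) and 0.07 without WT 2 and WT 3.

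Socs2 (chromosome 10 from 95385362 to 95417180, minus strand), an inhibitor of growth hormone signaling, had 44.3, 35.4, 37.1 and 47.3 CPM in WT libraries 1 to 4 and 36.5, 34.1, 40.9 and 39.5 CPM in Gsdmd-/- libraries 1 to 4. WT 1 and WT 4 were above every Gsdmd-/- library, while WT 2 and WT 3 lay among them. The log2 fold change was -0.12 (standard error 0.113, 95% interval -0.37 to 0.13, edgeR adjusted p = 0.724), and -0.28 without WT 2 and WT 3 (edgeR adjusted p = 0.267). Without WT 4, the library with the highest Socs2, it was -0.04. Cish (chromosome 9 from 107296026 to 107302784, plus strand), whose promoter held the 2 matches described above, had 123, 133, 132 and 107 CPM in WT and 116, 126, 149.7 and 144 CPM in Gsdmd-/-. Gsdmd-/- 3 and 4 were above all WT libraries and the other two were within their range, and the log2 fold change was 0.11 (standard error 0.106, 95% interval -0.12 to 0.35, edgeR adjusted p = 0.727), and 0.21 without WT 2 and WT 3 (edgeR adjusted p = 0.545). It was 0.05 without WT 4 and 0.06 without Gsdmd-/- 3. Cish overlaps 2 antisense transcripts, of which Gm17041 had 0 counts and Gm17040 had 56 counts over all libraries against 16728 for Cish.

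**Figure D2:**
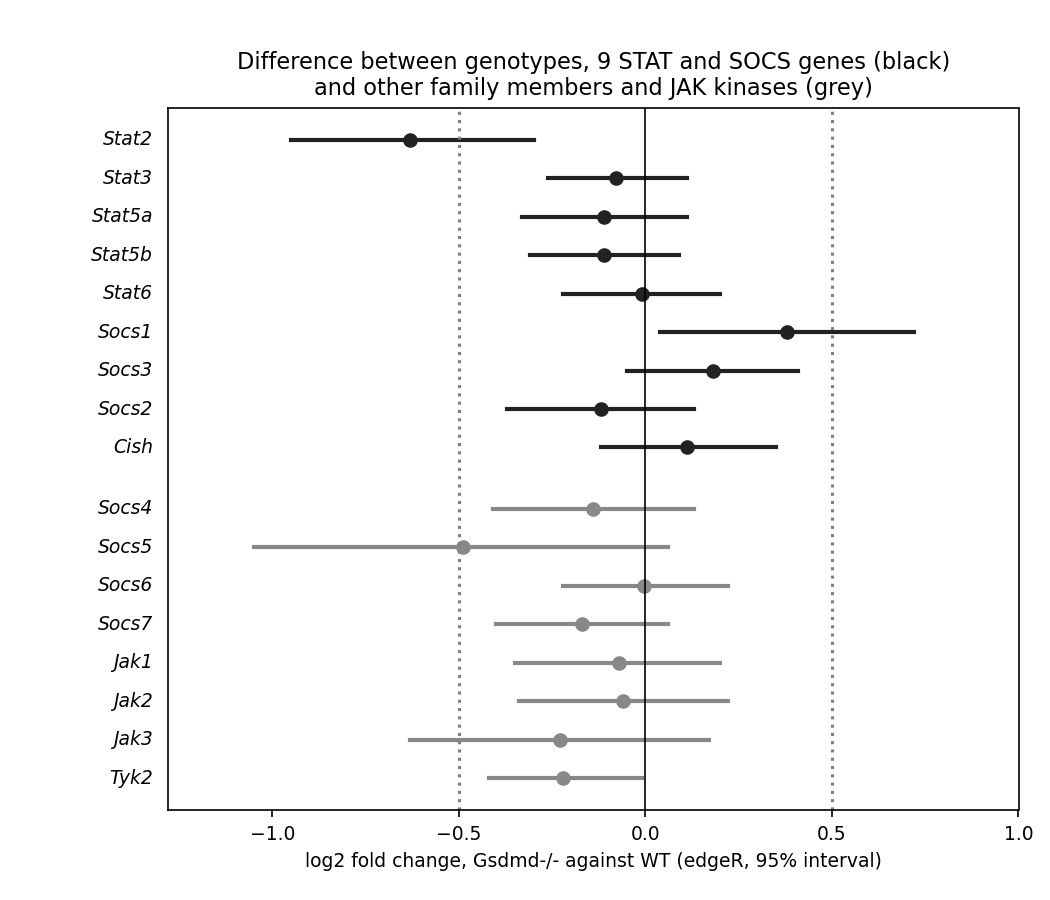
Log2 fold change of Gsdmd-/- against WT on the horizontal axis, as a point with its 95% interval from edgeR, for the 9 STAT and SOCS genes (black) and for other members of both families and the JAK kinases (grey); dotted lines mark the 0.5 of the study's cutoff. The intervals of Stat2 (-0.95 to -0.30) and Socs1 (0.04 to 0.72) lie to either side of 0, and those of the other 7 black genes include it.

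To set the genes beside each other, CPM were divided by the length of the principal transcript in kilobases, which gives a level per length. In WT the order ran from Stat6 (60.9 ± 5.39 CPM per kilobase) through Socs3 (43.4 ± 4.13), Cish (43.4 ± 4.17) and Stat3 (25.1 ± 1.44) to Socs2 (18.5 ± 2.57), Socs1 (15.0 ± 2.17), Stat5b (12.4 ± 1.15), Stat2 (10.6 ± 1.07) and Stat5a (10.3 ± 1.16), all SD with n = 4. Stat6 was clear of Socs3, Cish of Stat3, and Stat3 of Socs2, in every WT library. The ranges of neighbours overlapped between Socs3 and Cish, Socs2 and Socs1, Socs1 and Stat5b, Stat5b and Stat2, and Stat2 and Stat5a. In Gsdmd-/- Stat2 was the last of the 9, at 6.85 ± 1.40 CPM per kilobase, with Stat5a above it at 9.56 ± 0.617, and Socs1 (19.6 ± 3.86) was ahead of Socs2 (17.0 ± 1.37). The order depended on which length was used. With the length of all annotated exons, Cish was at 19.3 ± 1.85 CPM per kilobase in WT against 38.3 ± 3.65 for Socs3, Socs1 was ahead of Stat3, and Socs2 went from place 5 to place 9, since its annotated exons span 9531 bases against 2222 in its principal transcript.

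**Figure D3:**
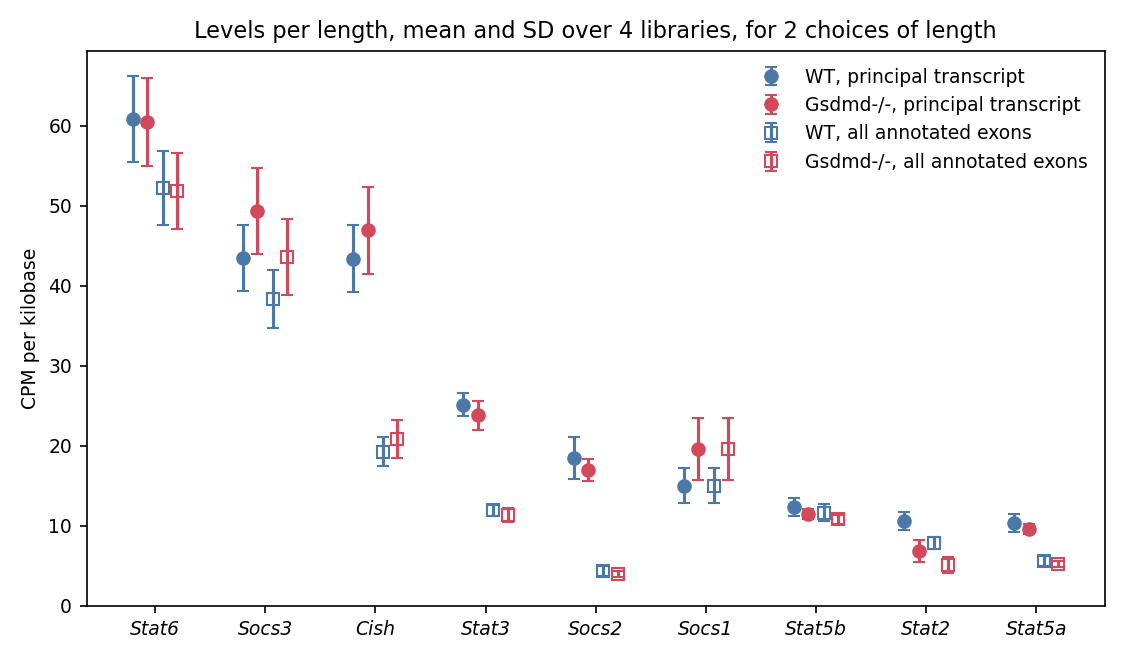
Mean level per length in CPM per kilobase (vertical axis, SD over 4 libraries) of each gene in WT (blue) and Gsdmd-/- (red), with the length of the principal transcript (filled circles) or of all annotated exons (open squares). Stat6 is highest at both lengths (60.9 and 52.2 CPM per kilobase in WT), while Cish, Stat3 and Socs2 move most between the lengths.

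Some of these genes varied together across libraries. On log2 CPM over the 8 libraries, Socs1 and Socs3 had a Pearson r of 0.97 (exact permutation p = 1.736e-04, adjusted over the 36 pairs 0.00625) and a Spearman rho of 0.95 (exact permutation p = 0.00114, adjusted 0.0402). The r was 0.97 for deviations from the genotype means, 0.95 within WT, 0.98 within Gsdmd-/-, 0.95 without WT 2 and WT 3, and 0.97 without the pair of libraries farthest from the median of Socs1. Among 12037 genes with a mean of at least 1 CPM, Socs3 was the gene whose pattern was most like that of Socs1, and Socs1 the one most like that of Socs3. The next for Socs1 was Rnh1 (r = 0.951) and for Socs3 Prpsap1 (r = 0.938).

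Stat5a and Stat5b had an r of 0.87 (exact permutation p = 0.0061, adjusted 0.0732) and a rho of 0.93 (exact permutation p = 0.00223, adjusted 0.0402), with 0.90 without WT 2 and WT 3 and 0.73 without the pair of libraries farthest from the median of Stat5a. The part of their shared sequence in this was not tested. Stat2 went against Socs1, with an r of -0.88 (exact permutation p = 0.00469, adjusted 0.0732) and a rho of -0.86 (exact permutation p = 0.0107, adjusted 0.129). The same sign held within WT (r = -0.94) and within Gsdmd-/- (r = -0.78), and the r was -0.77 without WT 2 and WT 3 and -0.68 without Gsdmd-/- 3 and 4, the pair farthest from the median of Stat2. Socs1 and Socs2 had an r of 0.38 over all libraries (exact permutation p = 0.344, adjusted 0.63) but of 0.99 within WT and 0.93 within Gsdmd-/-, since Socs2 followed Socs1 inside each genotype at a different level. In WT both genes were low in WT 2 and WT 3 and high in WT 1 and WT 4. Their r was 0.12 without WT 2 and WT 3. It was 0.24 without WT 2 and Gsdmd-/- 3, the pair farthest from the median of Socs1. With 4 libraries in a genotype the values within a genotype are descriptions. For Cish the r was 0.27 with Socs1, 0.23 with Socs3 and -0.31 with Socs2 over all libraries, and its sign differed between the genotypes, at -0.86, -0.67 and -0.91 within WT and 0.58, 0.52 and 0.80 within Gsdmd-/-. The r was 0.60, 0.57 and -0.26 without WT 2 and WT 3. Its closest gene was Prkaa1, a catalytic subunit of AMP-activated kinase (r = 0.983), and that of Socs2 was Fastkd3 (r = 0.986).

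**Figure D4:**
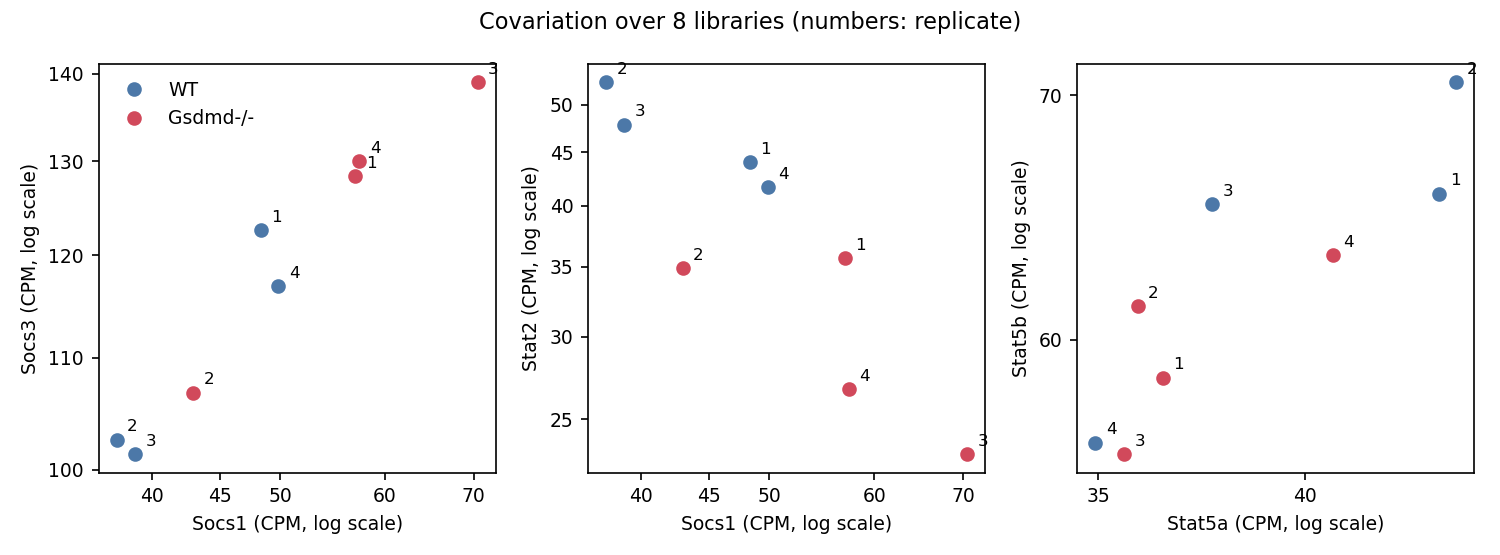
Level of Socs3 against Socs1, Stat2 against Socs1, and Stat5b against Stat5a in each library, in CPM on log axes, with WT in blue, Gsdmd-/- in red and the replicate numbers beside the points. Socs1 and Socs3 lie along 1 line through both genotypes (r = 0.97), Stat2 runs against Socs1 (r = -0.88), and Stat5a and Stat5b run together (r = 0.87).

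Other members of both families and the JAKs that act upstream of them gave no call. Jak1 had 310 ± 54.7 CPM in WT and 294 ± 14.5 CPM in Gsdmd-/- and Jak2, the kinase of GM-CSF and IL-3 receptors, had 62.8 ± 11.6 and 60.3 ± 2.27 CPM (SD, n = 4 each). The log2 fold changes of Jak1, Jak2 and Jak3 were -0.07, -0.06 and -0.23, and without WT 2 and WT 3 these were 0.15, -0.27 and 0.13 (edgeR adjusted p = 0.228 for Jak2). Socs5 ranged from 15.3 to 20.4 CPM in 6 libraries and had 37.6 CPM in WT 2 and 32.0 CPM in WT 3. Its log2 fold change was -0.49 with these libraries and 0.10 without them. Socs4, Socs6 and Socs7 had log2 fold changes of -0.14, -0.0046 and -0.17, which were 0.0019, 0.12 and -0.09 without WT 2 and WT 3. Stat4 had 1 count in each genotype and was not tested. The ubiquitin ligase partners of the SOCS box (Elob, Eloc, Cul5 and Rnf7) all had positive log2 fold changes, with a median of 0.19 and the smallest p at Elob (0.20, and 0.09 without WT 2 and WT 3), and none of the 4 had an unadjusted p under 0.05.

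Among 14 other inhibitors of the pathway, Ptpn6, which encodes the phosphatase SHP-1, came nearest to the threshold. Its level was 122 ± 7.62 CPM in WT and 89.2 ± 5.54 CPM in Gsdmd-/- (SD, n = 4 each), with no overlap between the genotypes and a log2 fold change of -0.45 (edgeR adjusted p = 0.0564). With RLE scaling in place of TMM it passed (edgeR adjusted p = 0.0491), as it did by DESeq2 and by the exact test of edgeR. These were 3 of the 17 alternatives. Ptpn6 was called in 0 of the 8 fits that left out a library (edgeR adjusted p = 0.0538 to 0.26). Without WT 2 and WT 3 its log2 fold change was -0.40 (edgeR adjusted p = 0.0863). Among the receptors, Il21r of the γ-chain family was the 1 gene called. It had 69.1, 66.3, 70.7 and 104 CPM in WT libraries 1 to 4 and 37.3, 30.6, 39.4 and 43.6 CPM in Gsdmd-/- libraries 1 to 4, a log2 fold change of -1.04 (edgeR adjusted p = 0.0319). Its call was lost without WT 3 (edgeR adjusted p = 0.0722) and without any 1 of the Gsdmd-/- libraries (0.0647 to 0.156), while its log2 fold change stayed at -1.12 to -0.96 in these fits. Il4ra, which activates STAT6, lies 24.0 kb from Il21r on chromosome 7. It had 194, 200.1, 186 and 190.3 CPM in WT and 158, 159, 146 and 157 CPM in Gsdmd-/-, with no overlap and a log2 fold change of -0.31 (edgeR adjusted p = 0.115). DESeq2 (adjusted p = 8.321e-04) and the exact test of edgeR (adjusted p = 0.0488) called it, which were 2 of the 17 alternatives.

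The receptors of the other cytokine families gave no call. Csf2rb, the shared β chain of the GM-CSF and IL-3 receptors that feed STAT5, had 3480.3 ± 233 CPM in WT libraries and 3121 ± 239.9 CPM in Gsdmd-/- libraries (SD, n = 4 each). Its log2 fold change was -0.16, as was that of its near copy Csf2rb2, and both lie on the chromosome of Gsdmd, 2.46 and 2.42 Mb from it. Csf2rb and Csf2rb2 share 892 stretches of 50 bases, 12.3% of those of Csf2rb and 18.4% of those of Csf2rb2. Some reads of one could therefore have been counted on the other or discarded. Il10ra, the receptor chain through which IL-10 activates STAT3, had a log2 fold change of -0.23 with no overlap (edgeR adjusted p = 0.333), and -0.15 without WT 2 and WT 3. Ifngr2, a chain of the interferon-γ receptor, had one of 0.24 (edgeR adjusted p = 0.318), and 0.16 without them. Csf2ra, the GM-CSF-binding chain, had -0.18 (edgeR adjusted p = 0.403), and -0.11 without them. Il12rb1, of the IL-12 receptor, had a low level (2.16 ± 1.29 and 1.18 ± 0.212 CPM) and a log2 fold change of -0.87 (edgeR adjusted p = 0.44), and -1.42 without them (edgeR adjusted p = 0.0526). Leaving out WT 4, its highest library, gave -0.44. Il6ra, Il6st, Ifnar1 and Ifngr1 had log2 fold changes of 0.19, -0.19, -0.07 and -0.07, and without WT 2 and WT 3 these were -0.22, 0.13, -0.38 and -0.13. For Ifnar1, the receptor chain upstream of STAT2, the edgeR adjusted p was 0.912 with these libraries and 0.115 without them. Il7r, on the chromosome of Gsdmd at a distance of 66.33 Mb, had a log2 fold change of 0.12, and of 0.19 without WT 2 and WT 3. Of 27 ligands, 7 could be tested and none was called, and 2 were higher at the study's cutoff, beside 1.54% of all genes, Osm and Il4, the latter named after its values were seen. Il6 had 1 count in WT and 3 in Gsdmd-/- and Il10 had none. Osm, an activator of STAT3, had 9.72 ± 3.57 CPM in WT and 17.2 ± 3.60 CPM in Gsdmd-/- (log2 fold change 0.83, edgeR adjusted p = 0.235). It was 0.45 without WT 2 and WT 3, where Osm was lowest (edgeR adjusted p = 0.374).

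The targets of STAT3 and STAT5 held 4 of the 7 calls among 106 tested genes of the 13 pathway lists, where 0.349% of all genes were called. Among 10 targets of STAT3, 3 rose at an adjusted p under 0.05 and none passed on the lower side. At an unadjusted p under 0.05 there were 5 higher and 1 lower, where 12.0% of all genes met that threshold in either direction, and the median log2 fold change was 0.19. Zfp36, which encodes the mRNA-destabilizing protein tristetraprolin, rose from 99.2 ± 7.71 to 194.6 ± 11.7 CPM (0.97 on the log2 scale, SD with n = 4 each, edgeR adjusted p = 8.198e-04). Fos rose from 52.0 ± 7.92 to 114 ± 15.8 CPM (log2 fold change 1.13, edgeR adjusted p = 0.0059) and Myc from 36.5 ± 2.27 to 52.0 ± 2.85 CPM (0.51, edgeR adjusted p = 0.0361). Fos, Zfp36 and Myc are also immediate-early or growth factor-induced genes, and Myc lies 13.87 Mb from Gsdmd on its chromosome. The 8 targets of STAT5 went both ways, with 4 log2 fold changes above and 4 below 0, a median of -0.31, and 2 higher and 3 lower at the study's cutoff, which 1.54% and 3.28% of all genes met. Of these Pim1, which encodes a serine/threonine kinase, rose from 217 ± 14.2 to 312 ± 15.2 CPM (log2 fold change 0.53, edgeR adjusted p = 0.0302). Bcl6, a gene that STAT5 is known to repress, had 9.19 ± 2.45 and 4.55 ± 0.548 CPM with no overlap (log2 fold change -1.01, edgeR adjusted p = 0.0861). It was called by DESeq2 (adjusted p = 0.00162), by the exact test of edgeR (adjusted p = 0.00268), without a filter (edgeR adjusted p = 0.0285) and without WT 4 (edgeR adjusted p = 0.0141). These were 4 of the 17 alternatives. Its log2 fold change was -0.73 without WT 2 and WT 3, where Bcl6 was highest (edgeR adjusted p = 0.148). When single libraries were left out, its adjusted p by edgeR was up to 0.318, without Gsdmd-/- 1. None of the 9 tested STAT6 targets was called, and their median log2 fold change was -0.34, with 2 above and 7 below 0. The smallest p among them was that of Irf4, a transcription factor of alternative activation, with a log2 fold change of -0.35 (edgeR adjusted p = 0.358) and of -0.57 without WT 2 and WT 3 (edgeR adjusted p = 0.0588).

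Zfp36 and Fos were called in all 8 fits that left out a library. Pim1 was called in 2 of them, without WT 1 and without WT 4, and its adjusted p by edgeR was up to 0.153, without Gsdmd-/- 1, with log2 fold changes of 0.49 to 0.57 over the 8 fits. Its adjusted p by edgeR was 0.0588 without WT 2 and WT 3. Myc was called in 1, without WT 4, and its adjusted p by edgeR was up to 0.164, without Gsdmd-/- 1, with log2 fold changes of 0.47 to 0.54. Without WT 2 and WT 3 the number of genes called in the lists was 7, while the share called of all genes went to 1.21%, with Pim1 and Irf1 (edgeR adjusted p = 0.0695) not among them.

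**Figure D5:**
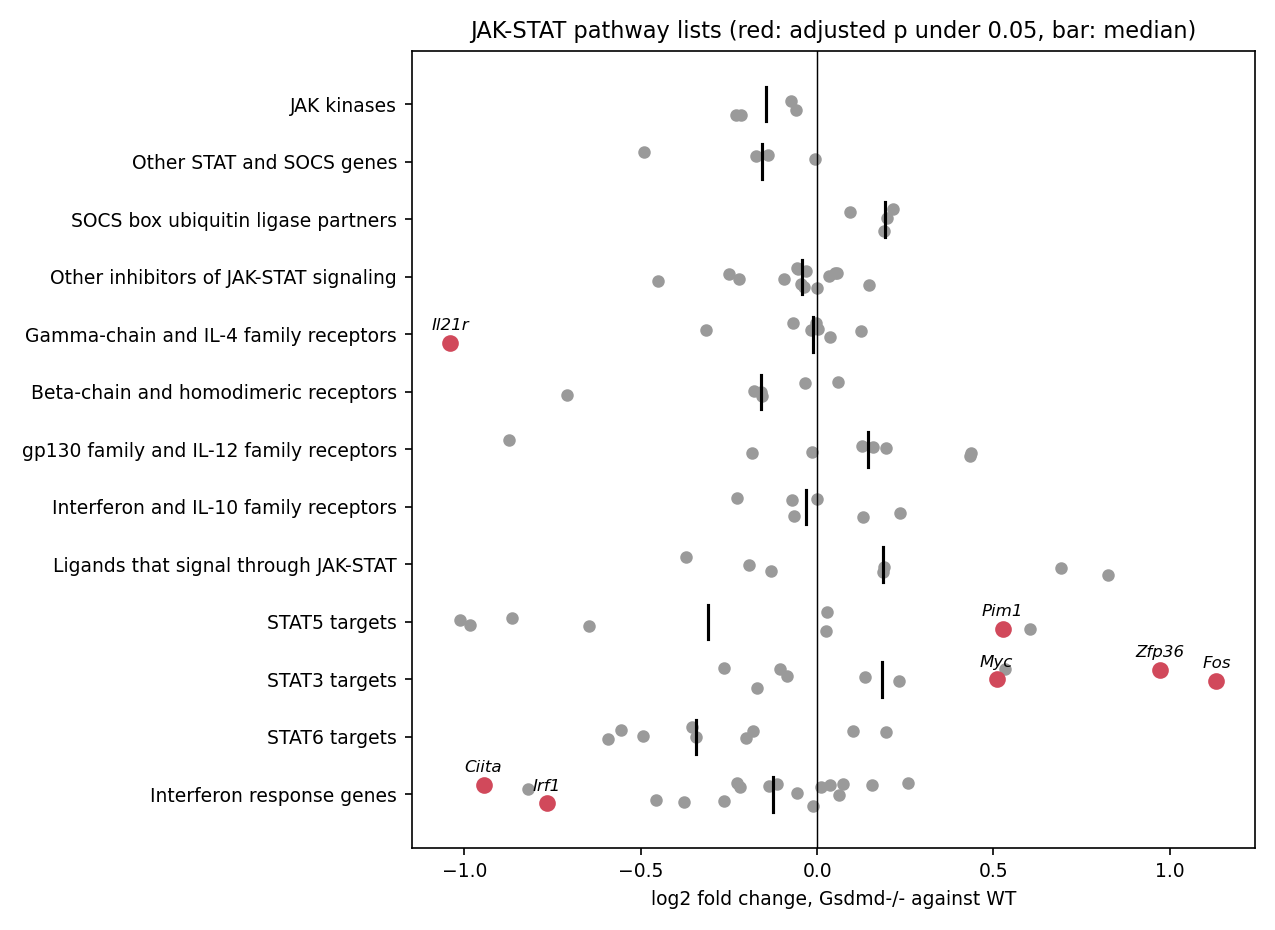
Log2 fold change of Gsdmd-/- against WT (horizontal axis) for each tested gene of the 13 pathway lists, with 1 row per list, genes with an edgeR adjusted p under 0.05 in red and named, and the list median as a black bar. The 7 called genes are Il21r, Irf1 and Ciita on the lower side and Pim1, Myc, Zfp36 and Fos on the higher side.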

How the data were processed

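Total RNA from BMDMs of 4 WT and 4 Gsdmd-/- libraries was made into TruSeq libraries and sequenced by a company. The authors deposited 1 table of read counts per gene, not normalized. The submitters' processing notes name the build mm10, and the aligner, the counter and its strand setting are not given in the sources used here. Positions and lengths were taken from GENCODE M21 (54495 of the 54532 identifiers matched).

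Counts were scaled by TMM, filtered with filterByExpr and tested between genotypes by edgeR 4.0.16 (R 4.3.3) with its two-sided quasi-likelihood test, genotype being the only term, and p-values adjusted over 12911 genes. Intervals are 95% intervals of the log2 fold change. Log2 CPM used a prior count of 2. Alternatives were limma voom (limma 3.58.1), DESeq2 1.42.0, the exact test of edgeR, RLE and upper-quartile scaling, a filter of at least 10 counts per library or none, a replicate block, and leaving out each library in turn or both WT 2 and WT 3. The fits were tested on simulated data. The 9 genes, the 13 pathway lists (142 genes) and the 7 marker lists were chosen with earlier results of these data known, so their counts carry no weight as independent evidence. Named from the lists were genes with an adjusted p under 0.05, the JAKs, other STAT and SOCS genes and a set of regulators whatever their values, and the gene with the smallest p in each list. Some genes of the lists are not reported here. Protein sequences were not used here.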

Additional observations from a re-analysis of the deposited data

Results flagged for a closer look

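Among 86 groups of 4 libraries examined, 4 had 1 library far from the other 3 by Dixon's criterion at the 95% level, and chance alone flags about 1 in 20 groups. Stat3 was at 95.3 CPM in Gsdmd-/- 3 and between 110.4 and 113 CPM in the other Gsdmd-/- libraries. Socs4 was at 34.9 CPM in Gsdmd-/- 1 and between 41.3 and 42.1 CPM in the others. Pim1 was at 335 CPM in Gsdmd-/- 1 and between 302 and 308 CPM in the others. Il21r was at 104 CPM in WT 4 and between 66.3 and 70.7 CPM in the other WT libraries.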

How the results depend on the processing

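Of 153 values of the 9 STAT and SOCS genes under 17 alternatives, 149 kept their direction, and the 4 that did not were those of Stat6, whose log2 fold change was 0.0017 with upper-quartile scaling, 0.01 without a filter, and between -0.07 and 0.05 when single libraries were left out. The number of the 9 genes with an adjusted p under 0.05 was 1 by DESeq2 and 1 by the exact test of edgeR, and 0 otherwise. The number of called genes in the pathway lists was 15 by DESeq2, 14 by the exact test of edgeR and 12 without a filter, and between 2 and 9 when single libraries were left out (2 without WT 3 or Gsdmd-/- 1, 2 or 3, 3 without WT 2, 4 without Gsdmd-/- 4, 5 without WT 1 and 9 without WT 4). Among all genes, 45 were called in the main test, 292 by DESeq2, 246 by the exact test, 109 without a filter and 161 without WT 2 and WT 3. When single libraries were left out, the number over all genes moved as well. It was 14 without WT 3 or Gsdmd-/- 1, 2 or 3, and 21 without WT 2. It was 22 without Gsdmd-/- 4, 48 without WT 1 and 84 without WT 4. Without WT 2 and WT 3 the log2 fold change was 0.15 for Jak1, 0.13 for Jak3, 0.0019 for Socs4, 0.10 for Socs5, 0.12 for Socs6, -0.38 for Usp18, -0.22 for Il6ra and 0.13 for Il6st. That of Socs6 was 0.01 with upper-quartile scaling and 0.01 without a filter. When single libraries were left out it lay between -0.17 and 0.01 for Jak1, -0.15 and 0.04 for Jak2, -0.07 and 0.04 for Socs6, -0.08 and 0.54 for Usp18, and -0.18 and 0.08 for Ifnar1. The cause of these changes was not tested.

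No clear pairing by replicate number was seen, as the deviations of same-numbered libraries correlated at 0.027, 0.182, 0.041 and -0.201. Only for WT 2 was the library of the same number, Gsdmd-/- 2, the best match. Whether libraries of the same number were prepared together was not tested. With a replicate block, 0 of the 9 genes, 5 genes of the lists and 25 of all genes were called, and Stat2 had an edgeR adjusted p of 0.165. The calls of Pim1 (edgeR adjusted p = 0.0835), Myc (0.149) and Ciita (0.0835) were lost with the block.

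The 95% intervals of the 7 STAT and SOCS genes other than Stat2 and Socs1 lay within -0.37 to 0.41 on the log2 scale.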
